A study of Populus tomentosa with 9 samples.

Results

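Suspension cells of Populus tomentosa, a poplar, had been sequenced as an antisense line and as an overexpression line of a gene that the labels do not name, and these lines were compared over 3 treatments. The comparison rests on 6 of the 9 libraries of the study, 3 from the antisense line and 3 from the overexpression line, and leaves the 3 wild type libraries aside. Within each line, 1 library came from cells in normal condition (the control), 1 from cells exposed to 10 mM H2O2 for 3 h, and 1 from cells exposed to 1 mM ASA for 3 h, an abbreviation that the labels do not spell out. All cells were taken 5 days after subculturing from shaken cultures kept in the dark. The study had no replicates, so each condition is 1 library, and the labels give 1 cell line a genotype, whose promoter, construct and number of transformation events the labels do not give. Since the targeted gene is unnamed, its level could not be read to check the line labels. The extraction protocol speaks of stems of Arabidopsis, against the suspension cells of poplar in the other labels, and the POPTR gene identifiers of the table are those of poplar.

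An antisense construct makes RNA complementary to a gene's transcript and usually lowers that transcript, whereas an overexpression construct adds transcript of the gene. With 1 cell line a genotype, effects of the targeted gene and differences between separately raised and kept cultures cannot be told apart here. H2O2 is a reactive oxygen species that plant cells make in their walls, plastids and mitochondria and use as a signal, and at higher levels it damages proteins and membranes. Plant cells in liquid culture grow in clumps, take sugar and phosphate from the medium and draw the phosphate down between transfers.

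The libraries held 17102469 to 19629543 reads recovered from the deposited values, which are FPKM, fragments scaled to gene length and library size. Between 22584 and 23263 genes reached 1 FPKM in a library, with 3.74% to 4.73% of reads on the top 20 genes. On the first principal component, which held 54.0% of the variance, the overexpression H2O2 and ASA libraries lay at 74.5 and 66.9, and the other 4 libraries lay between -42.2 and -24.7. The treated libraries of the lines did not match by label. Across 23382 genes the H2O2 minus ASA difference of the antisense line had a correlation of -0.58 with that of the overexpression line, and the antisense response to ASA had a higher correlation with the overexpression response to H2O2 (0.29) than with its response to ASA (-0.02). Responses to H2O2 correlated at 0.03, and all of these responses share a control library within a line. Mean differences over the 3 treatments do not depend on which treated library carries which label, but differences within H2O2 or ASA do, and so do the standard errors, the adjusted p-values and the count of calls in the main comparison, which rest on the scatter over the treatment pairs. Whether any treated libraries were exchanged was not tested. With the treated libraries taken only as treated, so that H2O2 and ASA labels play no part, 73 genes passed in place of the 16 given below, and all 16 were among them. At a fold of at least 2, 560 genes differed from the control in the antisense H2O2 library, 1922 in the antisense ASA library, 3637 in the overexpression H2O2 library and 3297 in the overexpression ASA library.

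The line difference of a gene is given here as antisense minus overexpression on log2(FPKM + 1), so a positive value is higher in the antisense line. The sign ± marks its moderated standard error from the limma fit. That error joins the gene's own scatter over the 3 treatments with a variance drawn from all tested genes. A gene passed when its adjusted p in the limma fit was below 0.05. Of 23382 tested genes (mean over the 6 libraries 1 FPKM or more), 16 passed (0.0684%), 8 higher in the antisense line (0.0342%) and 8 lower (0.0342%). In all 16 the antisense libraries lay wholly on one side of the overexpression libraries, which was so for 3024 tested genes with the antisense line above (12.9%) and for 1951 with it below (8.34%). Unadjusted p was below 0.05 for 2871 genes. The count hung on the treatment pairs: without the antisense control library 381 genes passed, 257 higher and 124 lower, and without the antisense ASA library none did (0 genes, 1995 having an unadjusted p below 0.05). Without the overexpression control library 377 genes passed, and without the overexpression ASA library 0. Other scalings shifted the balance of directions, with 2 higher and 5 lower under median-ratio scaling and 2 higher and 8 lower under quantile normalization.

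Among the genes that were higher, the largest difference with a description belonged to POPTR_0010s05300, a protein kinase with leucine-rich repeats, a domain plan that plants use for receptors at the cell surface. Its levels were 15.7, 11.7 and 28.3 FPKM in the antisense control, H2O2 and ASA libraries and 0.698, 0.265 and 0.129 FPKM in the overexpression libraries in the same order. Every antisense library was far above every overexpression library, and the difference was 3.77 ± 0.35 with an adjusted p of 0.0395. POPTR_0007s10900 encodes a subtilisin, a family of mostly secreted serine proteases, and read 27.6, 28.2 and 30.5 FPKM in the antisense libraries against 2.80, 3.09 and 4.09 FPKM in the overexpression libraries. It varied little with treatment in either line, and its difference was 2.79 ± 0.24 (adjusted p = 0.0307).

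POPTR_0014s01940 encodes cytochrome b5, a small haem protein that hands electrons to desaturases and P450 enzymes. It was the most abundant of the genes that rose, at 118, 122 and 132 FPKM in the antisense libraries and 18.5, 22.3 and 14.0 FPKM in the overexpression libraries, a difference of 2.72 ± 0.25 (adjusted p = 0.0395). POPTR_0010s21900, an alpha/beta hydrolase of the kind found among esterases and lipases, stood at 60.3, 48.1 and 29.1 FPKM against 8.30, 7.66 and 5.66 FPKM. Its level was lowest after ASA in both lines, and the lines still differed by 2.47 ± 0.24 (adjusted p = 0.0487). Under quantile normalization and median-ratio scaling only 2 higher genes passed, although all 16 genes kept their direction there.

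Of the other 4 higher genes, none has a deposited description. POPTR_0014s04770 gave the largest difference of all tested genes, 5.27 ± 0.31 (adjusted p = 0.0102), from 93.7, 96.0 and 71.1 FPKM in the antisense libraries and 1.76, 0.550 and 1.72 FPKM in the overexpression libraries. POPTR_0003s16850 was close to silent in the overexpression line, at 0.217, 0 and 0.230 FPKM or 2 reads over the 3 libraries, and read 29.9, 30.0 and 32.8 FPKM in the antisense line, a difference of 4.80 ± 0.25 (adjusted p = 0.0102). In both cases the tested gene just before it by identifier number also passed, in the same direction.

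Transcription factors and a wall protein led the genes with a description that were lower in the antisense line. POPTR_0005s08860 encodes a WRKY factor, a plant family best known from defence and stress responses. Its levels were 0.827, 2.21 and 1.51 FPKM in the antisense libraries and 31.1, 39.0 and 38.3 FPKM in the overexpression libraries, and the difference of -3.91 ± 0.25 had the lowest adjusted p in the fit, 0.0102, shared with other genes. POPTR_0013s09960 carries a MADS-box, the DNA-binding part of a family of developmental regulators, and POPTR_0013s09980 carries a K-box, through which such factors pair with each other. They stood at 4.51, 2.90 and 3.09 and at 3.92, 2.44 and 2.54 FPKM in the antisense libraries, against 60.4, 67.5 and 57.9 and 68.1, 53.1 and 50.3 FPKM in the overexpression libraries. The differences were -3.82 ± 0.25 and -3.88 ± 0.23 (adjusted p = 0.0105 and 0.0102), and no gene tested lies between them by identifier number; whether they are 1 transcript was not tested.

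Novel00190, described as a glycine-rich cell wall structural protein, read 2.55, 4.16 and 3.88 FPKM in the antisense line and 40.3, 65.8 and 58.4 FPKM in the overexpression line. Proteins of this kind sit in the extracellular matrix of vascular and other tissues, and the gene fell by 3.61 ± 0.23 (adjusted p = 0.0102). POPTR_0013s03080 encodes shikimate dehydrogenase joined to dehydroquinase, the enzyme of the shikimate pathway on the way to aromatic amino acids and phenylpropanoids. Its levels were 3.14, 5.39 and 6.07 FPKM against 41.3, 79.3 and 62.4 FPKM, the control being the lowest library in both lines, and the difference was -3.39 ± 0.24 (adjusted p = 0.0144). POPTR_0006s15720 has the domains of a cytokinin dehydrogenase, which breaks down cytokinins, the plant hormones that promote cell division. It read 0.330, 0.788 and 1.27 FPKM in the antisense libraries and 12.6, 15.5 and 13.2 FPKM in the overexpression libraries, a difference of -3.07 ± 0.27 (adjusted p = 0.0341).

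The remaining lower genes have no description. POPTR_0005s08870, next to the WRKY gene by number, had 0 reads in the antisense control and H2O2 libraries and 6 reads (1.39 FPKM) in the antisense ASA library, against 11.7, 22.0 and 22.4 FPKM in the overexpression libraries (difference -3.83 ± 0.32, adjusted p = 0.0299). Novel00111 read 8.94, 5.16 and 6.02 FPKM against 74.4, 71.3 and 62.9 FPKM (difference -3.22 ± 0.25, adjusted p = 0.0206). Of the 16 genes, 8 thus form 4 pairs that are neighbours among the tested genes of their identifier prefix. No other tested gene within 3 places of a gene that passed did so.

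**Figure D1:**
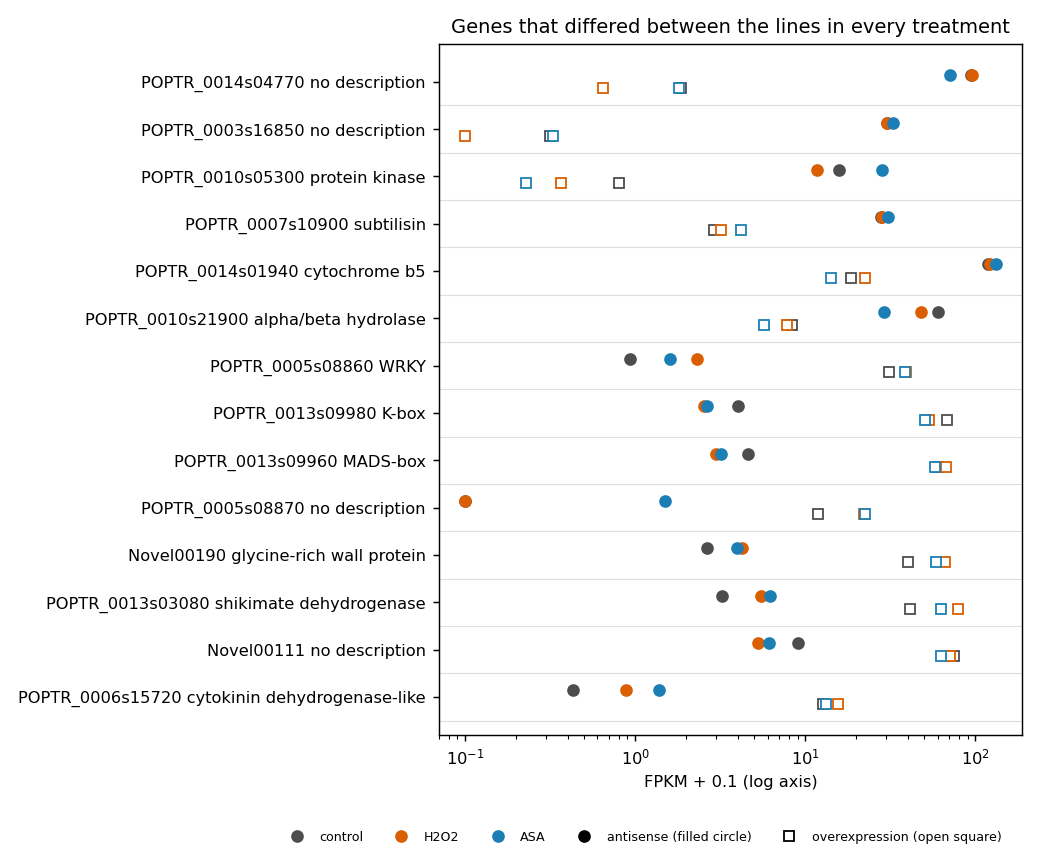
FPKM plus 0.1 on a log axis for 14 of the 16 genes that passed, 1 row per gene, with filled circles for the 3 antisense libraries, open squares for the 3 overexpression libraries and colour for treatment. In each row the circles and squares do not overlap; the WRKY gene POPTR_0005s08860 lies at 0.827 to 2.21 FPKM in the antisense line and at 31.1 to 39.0 FPKM in the overexpression line.

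Some genes with large differences did not pass although the libraries of the lines did not overlap, and they are given here as values. In some of them the difference changed in size between treatments. POPTR_0012s13140, with a PAR1 domain, read 50.2, 35.8 and 67.4 FPKM in the antisense libraries and 6.83, 0.747 and 0.364 FPKM in the overexpression libraries (difference 4.25 ± 0.53, adjusted p = 0.102). The gene was lower in the treated overexpression libraries than in the overexpression control, while the antisense line stayed high throughout. POPTR_0009s06590, a transporter of the multidrug and toxin extrusion family that moves organic compounds out of the cytosol, read 22.7, 11.3 and 13.7 against 4.54, 0.546 and 0.330 FPKM (difference 2.85 ± 0.33, adjusted p = 0.0745). POPTR_0017s04600, an aminotransferase of the tyrosine and nicotianamine type, read 553, 489 and 402 against 338, 11.4 and 27.7 FPKM, so that the control libraries lay close and the treated ones far apart (difference 3.28 ± 0.79, adjusted p = 0.241). The other 8 genes of this kind with the antisense line above had differences of 2.73 to 3.05 and adjusted p from 0.128 to 0.267, among them the FAD-linked oxidase POPTR_0011s16580 and the kinase POPTR_0003s20480.

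In the other direction, POPTR_0001s39220, described with both trehalose-phosphate synthase and trehalose-phosphatase domains, those of the enzymes that make and dephosphorylate the sugar signal trehalose 6-phosphate, read 3.98, 2.74 and 2.10 FPKM in the antisense libraries and 22.3, 21.4 and 22.2 FPKM in the overexpression libraries. The overexpression level hardly moved between treatments, and the difference of -2.57 ± 0.26 had an adjusted p of 0.0520, just outside the threshold. POPTR_0008s07750, an acyl-carrier-protein type fatty acid desaturase by its domain, read 0.560, 0.761 and 1.44 against 7.28, 10.7 and 11.7 FPKM (adjusted p = 0.0520). POPTR_0013s08910, which carries a translation initiation factor SUI1 domain, had 1 read over the 3 antisense libraries and 484, 251 and 169 reads in the overexpression libraries (adjusted p = 0.0568). POPTR_0001s32000, a UDP-glycosyltransferase, read 0.667, 0.861 and 0.436 against 6.73, 7.02 and 9.01 FPKM (adjusted p = 0.0777). POPTR_0002s03190, a second cytokinin dehydrogenase, read 1.56, 1.07 and 2.42 against 48.6, 17.5 and 8.77 FPKM (difference -2.98 ± 0.51, adjusted p = 0.176). The C2-domain gene POPTR_0002s12470 and the 2-oxoglutarate oxygenase POPTR_0002s07880 were low in all antisense libraries and in the overexpression control, and reached 44.6 and 25.1 FPKM in the overexpression H2O2 library. The lateral organ boundaries factor POPTR_0013s15220 and the acyltransferase-like POPTR_0008s06520 had differences of -2.51 and -3.26.

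Within a treatment, where 1 library is set against 1 and no test is possible, the lines were much closer in control cells than after treatment. At a fold of at least 2 on log2(FPKM + 1) and at least 1 FPKM in the higher library, 1073 of 23876 genes (4.49%) were apart in the control pair, 553 higher and 520 lower in the antisense line. In the H2O2 pair 4630 of 23973 genes (19.3%) were apart, 2795 higher and 1835 lower, and in the ASA pair 4718 of 24106 (19.6%), 2842 higher and 1876 lower. The direction in the ASA pair hung on the scaling: the median of all genes in that pair was 0.23, and under median-ratio scaling 1787 genes were higher and 2588 lower. For H2O2 that scaling gave 2490 higher and 2175 lower. Over all pairs, 137 genes were at least 2-fold higher in the antisense line in all 3 pairs, and 112 lower, whereas 845 were higher and 443 lower in both treated pairs but not in the control pair. Further, 323 genes were higher in the antisense line after H2O2 and lower after ASA, and 91 the reverse.

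**Figure D2:**
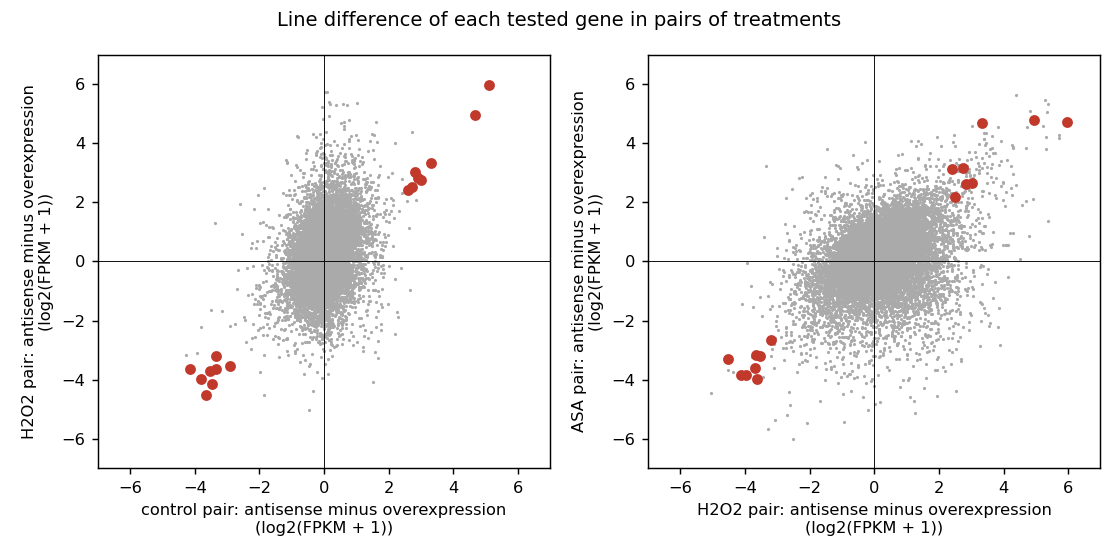
Antisense minus overexpression on log2(FPKM + 1) for each tested gene, the H2O2 pair against the control pair on the left and the ASA pair against the H2O2 pair on the right, with the 16 genes that passed as large red points. The cloud is narrow along the control axis and wide along both treated axes. The 16 genes lie near the diagonal, which follows in part from calling genes whose difference varied little over the pairs. On the right some genes that did not pass lie further out, such as POPTR_0254s00230 at 5.38 in the H2O2 pair and 5.34 in the ASA pair.

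Descriptions are deposited for 2713 of the tested genes, and each of those is a gene that the authors had listed as different from wild type in at least 1 comparison. The lists below are therefore chosen on these samples and are no independent evidence of a direction. They are set beside all tested genes, whose median difference was 0.08 with pair medians of -0.04, 0.07 and 0.23 in control, H2O2 and ASA, and beside all described genes, with a median of 0.12 and pair medians of 0.11, 0.46 and -0.17. Counts of list members above or below 0 are to be read beside these backgrounds too. Of the 23382 tested genes 13635 were above 0 and 9747 below, and of the 2713 described genes 1491 were above and 1222 below. Whether a lower level in these bulk libraries comes from fewer cells of a kind or from less RNA per cell cannot be told apart. Reads of near-identical copies in a family cannot be told apart either.

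No gene of the lists on phosphate passed; the pair medians of SPX proteins, acid phosphatases and PHOSPHO2-type phosphatases were above 0 in every pair and larger in the treated pairs. SPX domain proteins, which bind inositol pyrophosphates and hold the phosphate starvation regulators in check, had a median difference of 1.79 over 9 members, 8 of them above 0, and pair medians of 0.29, 1.70 and 2.72. For none of them (0 of 9) did the antisense libraries lie wholly above the overexpression libraries, against 12.9% of all tested genes. POPTR_0018s13140 read 71.2, 32.2 and 45.7 FPKM in the antisense libraries and 59.5, 5.14 and 1.80 FPKM in the overexpression libraries, so that the controls lay close and the treated overexpression libraries were the low ones. POPTR_0006s06880, POPTR_0014s06020 and POPTR_0176s00240 likewise read lowest in the treated overexpression libraries, with differences of 1.94, 1.91 and 1.88.

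Acid phosphatases, secreted enzymes that free phosphate from organic compounds, had a median of 0.94 over 16 members, 14 above 0, none past the threshold, with pair medians of 0.54, 1.06 and 1.28. The antisense libraries lay above all overexpression libraries for 6 of the 16, against 12.9% of all tested genes. Their summed level was 1058, 695 and 937 FPKM in the antisense libraries and 750, 814 and 722 FPKM in the overexpression libraries. In the H2O2 pair the sum was thus lower in the antisense line, against the pair median. POPTR_0012s03910 read 107, 29.0 and 69.6 against 61.8, 2.66 and 1.93 FPKM, and POPTR_0010s16580, a purple acid phosphatase, 6.51, 4.19 and 6.50 against 3.67, 0.422 and 0.578 FPKM. Of the PHOSPHO2-type phosphatases, neither with the antisense libraries wholly above, POPTR_0003s02940 read 224, 72.1 and 93.3 against 99.5, 6.36 and 2.92 FPKM (difference 3.02 ± 0.60, adjusted p = 0.199) and POPTR_0008s20130 139, 78.3 and 48.6 against 91.0, 3.99 and 6.85 FPKM. In both genes the treated overexpression libraries were the low ones. POPTR_0001s33270, a glycerophosphodiester phosphodiesterase that releases glycerol phosphate from deacylated membrane lipids, read 190.1, 108 and 125 against 107, 7.64 and 5.70 FPKM with no overlap (difference 2.90 ± 0.63, adjusted p = 0.215). Its list as a whole split evenly, with 3 of 6 members above 0. All 3 phosphate transporters were above 0, with POPTR_0001s32590 at 1.56.

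In the lists of flavonoid and phenylpropanoid synthesis the median of the control pair was above 0 like those of the treated pairs, though no member passed. Chalcone synthase makes the first flavonoid skeleton and chalcone isomerase closes its ring. All 7 members of this list were above 0, with a median of 1.17, pair medians of 0.94, 0.79 and 1.36, and 6 of the 7 had the antisense libraries wholly above, against 12.9% of all tested genes and 378 of the 2713 described ones. In the control pair POPTR_0003s17530 was below 0, at -0.11. The 5 members outside the shifted identifier ranges described below had a median of 1.26. The isomerase POPTR_0010s21980 read 132, 114 and 139.6 FPKM in the antisense libraries and 61.2, 48.7 and 37.5 FPKM in the overexpression libraries (difference 1.39 ± 0.26, adjusted p = 0.194). The synthase POPTR_0014s14200 read 122, 118 and 127 against 60.2, 52.9 and 48.8 FPKM, about the same in each treatment.

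Phenylalanine ammonia-lyase, which commits phenylalanine to phenylpropanoids, read higher in the antisense line for both copies measured in this list, neither of which passed. POPTR_0006s12870 read 265, 192 and 186 against 99.8, 64.8 and 62.7 FPKM (difference 1.5 ± 0.22, adjusted p = 0.128) and POPTR_0016s09230 127, 135 and 86.1 against 63.7, 38.1 and 59.6 FPKM. The laccase POPTR_0010s19080, of the family that joins lignin monomers, read 71.6, 51.0 and 18.0 against 25.7, 7.06 and 7.08 FPKM. Of these 6 further enzymes 5 were above 0, with a median of 0.91 and pair medians of 1.25, 1.29 and 0.77. The shikimate dehydrogenase gene that passed was lower, not higher, in the same libraries.

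Alternative oxidases and several FAD-linked oxidases held gaps that were wide in the treated pairs and narrow in the control pair, whereas the cytokinin dehydrogenases among the latter were far apart in control cells too. Alternative oxidase passes electrons from ubiquinone straight to oxygen in plant mitochondria and is commonly raised by stress. POPTR_0012s01620 read 447, 302 and 206 FPKM in the antisense libraries and 434, 4.72 and 10.5 FPKM in the overexpression libraries. The controls were level and only the treated overexpression libraries were low, so the difference of 3.31 ± 0.97 had an adjusted p of 0.290. Its neighbour POPTR_0012s01630 read 876, 359.5 and 212 against 566, 12.8 and 50.01 FPKM, and the list of 3 had pair medians of 0.21, 4.71 and 2.06, with the libraries of the lines overlapping in all 3 genes.

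FAD-linked oxidases of the berberine-bridge type oxidise sugars and small phenolic or alkaloid compounds in the wall. POPTR_0011s16560 read 1684, 544 and 561 FPKM in the antisense libraries and 1310.4, 13.0 and 11.7 FPKM in the overexpression libraries, and POPTR_0254s00230 988, 377 and 328 against 888, 8.07 and 7.12 FPKM. In both genes the control libraries of the lines were close and the treated overexpression libraries stood far below the rest. Their differences in the control, H2O2 and ASA pairs were 0.36, 5.29 and 5.47 for the first and 0.15, 5.38 and 5.34 for the second. The cytokinin dehydrogenases POPTR_0006s15720 and POPTR_0002s03190, which by their descriptions belong to this list, had -3.35, -3.20 and -2.64 and -4.28, -3.15 and -1.51 in the same pairs. Of the 13 members 8 were above 0, 1 passed (lower) and the median was 0.68; 6 of them lie in identifier ranges described below where most genes were higher in the antisense line.

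Among conjugating and detoxifying enzymes several of the widest gaps lay in the treated pairs. Glutathione S-transferases, which attach glutathione to reactive compounds, had 17 of 22 members above 0, a median of 0.73 and pair medians of 0.15, 1.66 and 0.41; none passed. POPTR_0008s17500 read 979, 712 and 573 against 697, 82.4 and 149 FPKM. UDP-glycosyltransferases, which attach sugars to small molecules, had a median of 0.15 over 34 members, made of pair medians of -0.03, 1.28 and -0.88 with opposite signs after H2O2 and ASA. The widest member, POPTR_0007s00740, read 117, 85.7 and 78.4 against 104, 1.15 and 1.36 FPKM. Cytochrome P450s had 22 of 32 members above 0 and a median of 0.58; POPTR_0014s03740 read 17.6, 13.3 and 19.2 against 2.16, 2.48 and 3.40 FPKM in all treatments alike (difference 2.26 ± 0.25, adjusted p = 0.0678). The catalase POPTR_0005s27300, which splits H2O2, read 111, 74.1 and 66.1 against 75.0, 19.4 and 34.5 FPKM (adjusted p = 0.272). The peroxidase POPTR_0003s21610 read 337, 101 and 89.1 against 168, 4.27 and 4.87 FPKM, while its list of 18 had a median of 0.18. The GDSL lipase POPTR_0017s02500 read 159.7, 84.8 and 61.2 against 168, 1.31 and 1.61 FPKM, with level controls and low treated overexpression libraries.

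**Figure D3:**
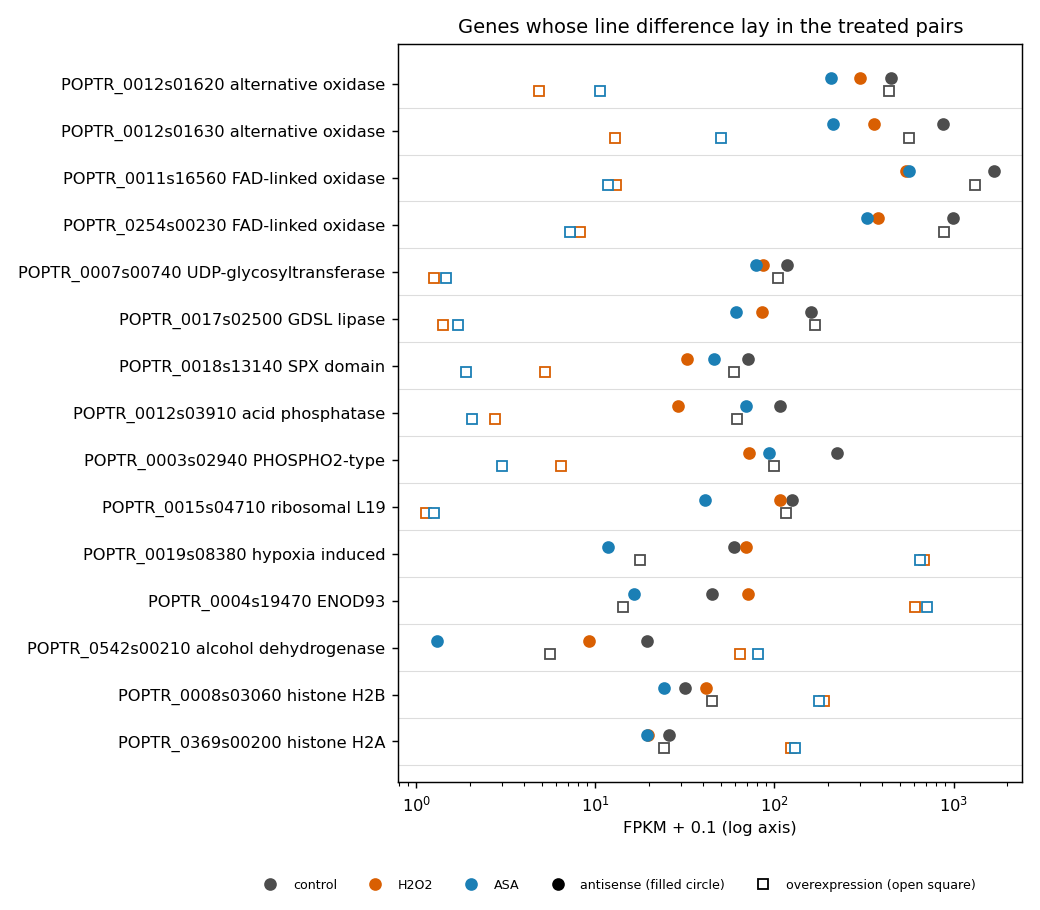
FPKM plus 0.1 on a log axis for 15 genes, 1 row per gene, with filled circles for the antisense libraries, open squares for the overexpression libraries and colour for treatment. In the upper rows the overexpression H2O2 and ASA squares stand apart to the left, as for POPTR_0012s01620 at 4.72 and 10.5 FPKM, and in the lowest 5 rows they stand apart to the right.

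Most members of the histone and ribosomal protein lists had differences below 0. Histones package DNA and are made mostly while it is copied, so their transcripts follow the share of cells in S phase. Of 28 histone genes 26 were below 0, none passed, and 6 had all antisense libraries below all overexpression libraries, against 8.34% of tested genes. Their median was -0.86, with pair medians of 0.16, -1.26 and -1.30, so the lines were level in control cells. The H2B gene POPTR_0008s03060 read 31.7, 41.6 and 24.1 FPKM in the antisense libraries and 44.7, 190.1 and 178 FPKM in the overexpression libraries, and the H2A gene POPTR_0369s00200 25.6, 19.5 and 19.2 against 24.2, 123 and 130.2 FPKM. The linker histone POPTR_0007s13930 was an exception, at 38.7, 58.3 and 69.1 against 15.9, 6.25 and 14.9 FPKM. Cyclins, kinesins and other division genes had a median of -0.09 over 13 members, with pair medians of 0.15, -0.37 and 0.08, and summed to 692 FPKM in the antisense H2O2 library and 1465 FPKM in the overexpression H2O2 library. Whether they differ from the histones was not tested. Of the histone genes 6 lie in identifier ranges where most genes were lower in the antisense line; the other 21 outside any shifted range had a median of -0.80, with 19 below 0.

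Ribosomal proteins, the structural parts of the ribosome, were below 0 for 136 of 147 genes, with a median of -0.53 and pair medians of -0.36, -0.98 and -0.35. None passed, and for 57 of the 147 the antisense libraries lay wholly below the overexpression libraries, against 8.34% of all tested genes and 304 of the 2713 described ones. Their summed level was 30213, 32470 and 39192 FPKM in the antisense libraries and 40578, 60521 and 51827 FPKM in the overexpression libraries. The lowest overexpression sum was thus above the highest antisense sum. POPTR_0008s04870 (L29) read 132, 128 and 166 against 313, 425 and 334 FPKM and POPTR_0008s06620 (P0) 65.1, 76.3 and 115 against 131, 332 and 189 FPKM. A pair of genes went the other way in treated cells, POPTR_0015s04710 (L19) at 125, 107 and 40.9 against 116, 1.04 and 1.16 FPKM and the ubiquitin and L40 fusion gene POPTR_0004s20500 at 23.0, 20.7 and 15.4 against 52.0, 1.14 and 0.448 FPKM. Outside the shifted identifier ranges 123 ribosomal genes kept a median of -0.52, with 115 below 0. Translation factors had a median of -0.54 over 14 genes, 10 below 0, of which 4 lie in ranges lower in the antisense line; the 9 outside had a median of -0.37.

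Chaperones did not share a direction across treatments. HSP70 proteins, which hold unfolded chains, had a median of -0.07 over 16 genes, made of pair medians of 0.10, -1.82 and 1.28. POPTR_0012s02470 read 17.5, 9.84 and 9.43 FPKM in the antisense libraries and 19.3, 73.3 and 26.9 FPKM in the overexpression libraries. The HSP90 gene POPTR_0005s26260 read 550.4, 341 and 385 against 421, 1633 and 1086 FPKM, so it was highest in the treated overexpression libraries. Pair medians were 0.15, -1.88 and -0.06 for the 4 HSP90 genes and 0.10, 0.88 and -0.93 for the 18 DnaJ co-chaperones. Of 7 small heat shock proteins, which hold back protein clumping, 6 were above 0, with a median of 0.37 and POPTR_0006s09460 at 236, 162 and 184 against 119.8, 80.2 and 48.7 FPKM. The opposite signs after H2O2 and ASA rest on the treated labels that did not match between the lines.

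Wound-induced proteins, a family of small proteins of unknown function, were below 0 for 17 of 18 genes, with a median of -0.59, no member past the threshold and pair medians of 0.19, 0.15 and -2.24. In the ASA pair the list median was thus far below 0, and in the other pairs it was slightly above. POPTR_1008s00210 read 194, 198 and 71.7 FPKM in the antisense libraries and 211, 196 and 434 FPKM in the overexpression libraries. The antisense ASA library was the lowest and the overexpression ASA library the highest of the 6. POPTR_0013s14410, the member with the largest difference, was apart after H2O2 as well, at 5.84, 5.85 and 0.592 against 1.88, 38.5 and 100.5 FPKM.

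Sucrose synthase, pyruvate decarboxylase and alcohol dehydrogenase, enzymes that carry plant cells through low oxygen, turned with treatment. The 25 genes had pair medians of 0.76, -0.61 and -1.62, and summed to 4775, 3430 and 2121 FPKM in the antisense libraries and 3257, 6613 and 6643 FPKM in the overexpression libraries. POPTR_0542s00210, an alcohol dehydrogenase, read 19.4, 9.12 and 1.21 against 5.47, 64.5 and 81.0 FPKM. POPTR_0019s08380, with a hypoxia-induced protein domain, read 59.0, 69.7 and 11.7 against 17.7, 686 and 651 FPKM, and POPTR_0004s19470, an early nodulin 93, 44.5, 71.1 and 16.3 against 14.1, 606 and 708 FPKM. These genes were higher in the antisense line in control cells and lower after either treatment. The reverse held for POPTR_0001s18160, with a domain of unknown function, at 29.7, 25.5 and 21.0 against 44.6, 1.08 and 0.726 FPKM, and for POPTR_0028s00410, named NDHB1 in the deposited tables, at 19.2, 25.1 and 14.0 against 34.4, 0.393 and 0.586 FPKM. In all, 205 of the 2713 described genes had the same sign in both treated pairs and the opposite sign in the control pair. The control difference had to be at least 0.5 in size, whereas the treated differences had no minimum. Genes without a description were not counted.

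Of the transcription factor families listed, those other than the MADS-box and WRKY genes above held no gene that passed. The 5 MADS-box and K-box genes, of which 2 passed, had a median of -1.62. POPTR_0011s03140, a further K-box gene, read 21.2, 10.8 and 15.6 against 77.9, 38.2 and 39.9 FPKM (adjusted p = 0.128), and POPTR_0003s11960 went the other way at 10.2, 10.1 and 9.71 against 2.71, 1.06 and 1.15 FPKM (adjusted p = 0.122). The 23 WRKY genes, of which 1 passed, were split, 11 above 0 and 12 below. Of 24 NAC factors 20 were above 0, with a median of 0.49 and pair medians of 0.44, 1.40 and -0.15; POPTR_0006s22580 read 73.4, 85.7 and 39.5 against 59.0, 12 and 7.22 FPKM. Of 31 AP2/ERF factors, many of which act downstream of ethylene, 21 were above 0, and POPTR_0010s08300 read 121, 39.8 and 50.9 against 31.1, 8.43 and 8.55 FPKM (difference 2.16 ± 0.24, adjusted p = 0.0678). MYB factors had a median of 0.28 with pair medians of 0.20, 1.00 and -0.59, and bHLH factors a median of -0.05.

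Among hormone genes, those of cytokinin and auxin went both ways, and most ethylene-related genes were above 0. Against the cytokinin dehydrogenases, the LOG-family gene POPTR_0004s22210, which releases active cytokinin, read 56.0, 41.6 and 171 against 68.1, 51.1 and 9.44 FPKM, high in the antisense ASA library alone. Of the GH3 genes, whose enzymes join auxin to amino acids, POPTR_0013s14740 read 0.0319, 0.0298 and 0 against 0.612, 8.32 and 6.79 FPKM and POPTR_0001s30560 18.0, 15.9 and 14.7 against 7.36, 5.46 and 3.57 FPKM, in opposite directions. The auxin list of 34 had a median of 0.21. Of 9 ethylene-related genes 8 were above 0, with POPTR_0010s25370, an ethylene insensitive 3-like factor, at 99.9, 98.0 and 113 against 86.4, 30.6 and 43.1 FPKM. The pair medians of this list were 0.24, 0.84 and 1.37. For 3 of the 9 the antisense libraries lay wholly above, against 12.9% of all tested genes.

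Cell wall genes were also mixed. Expansins, which loosen walls, had a median of 0.20 over 14 genes, with POPTR_0008s08790 at 30.8, 33.9 and 70.2 against 114, 312 and 119 FPKM and POPTR_0010s21000 at 95.3, 73.5 and 193 against 65.0, 28 and 16.7 FPKM. Pectin enzymes had 22 of 35 above 0, against 1491 of the 2713 described genes. Among them POPTR_0017s03910 read 5.95, 5.45 and 12 against 1.82, 0.273 and 0.213 FPKM. The 10 cellulose synthase genes had a median of -0.07. Among chitinases and thaumatins, which act on fungal walls, 15 of 21 were above 0; POPTR_0012s01160 read 44.2, 33.2 and 28.7 against 6.76, 5.18 and 9.64 FPKM (difference 2.16 ± 0.30, adjusted p = 0.124) and POPTR_0006s20260 10.3, 12.2 and 10.7 against 28.9, 78.5 and 59.8 FPKM (difference -2.12 ± 0.30, adjusted p = 0.128). Of the 8 BURP domain proteins 5 had the antisense line wholly above, against 12.9% of all tested genes, and the other 3 were below 0, 1 of them wholly. The 2 described photosynthesis genes summed to 15.2 to 21.8 FPKM in the antisense libraries and 6.70 to 20.4 FPKM in the overexpression libraries. Genes without a description could not be searched for markers of green cells, so the level of such markers as a set is not known here.

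The other 13 lists had medians between -0.38 (lipid transfer and hydrophobic seed proteins) and 0.71 (CAP domain proteins), and held 1 gene that passed, the kinase described first. In that list of 149 protein kinases 95 were above 0, against 1491 of the 2713 described genes, with a median of 0.24. Of 29 ABC transporters, which pump compounds across membranes at the cost of ATP, 21 were above 0, and POPTR_0001s37340 read 137, 96.3 and 102 against 87.1, 11.8 and 10.8 FPKM. Of 8 MATE transporters 3 were above 0 and 5 below. Among the latter POPTR_0004s09390 and POPTR_0229s00240 lay opposite to POPTR_0009s06590, with -1.69 and -1.66.

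**Figure D4:**
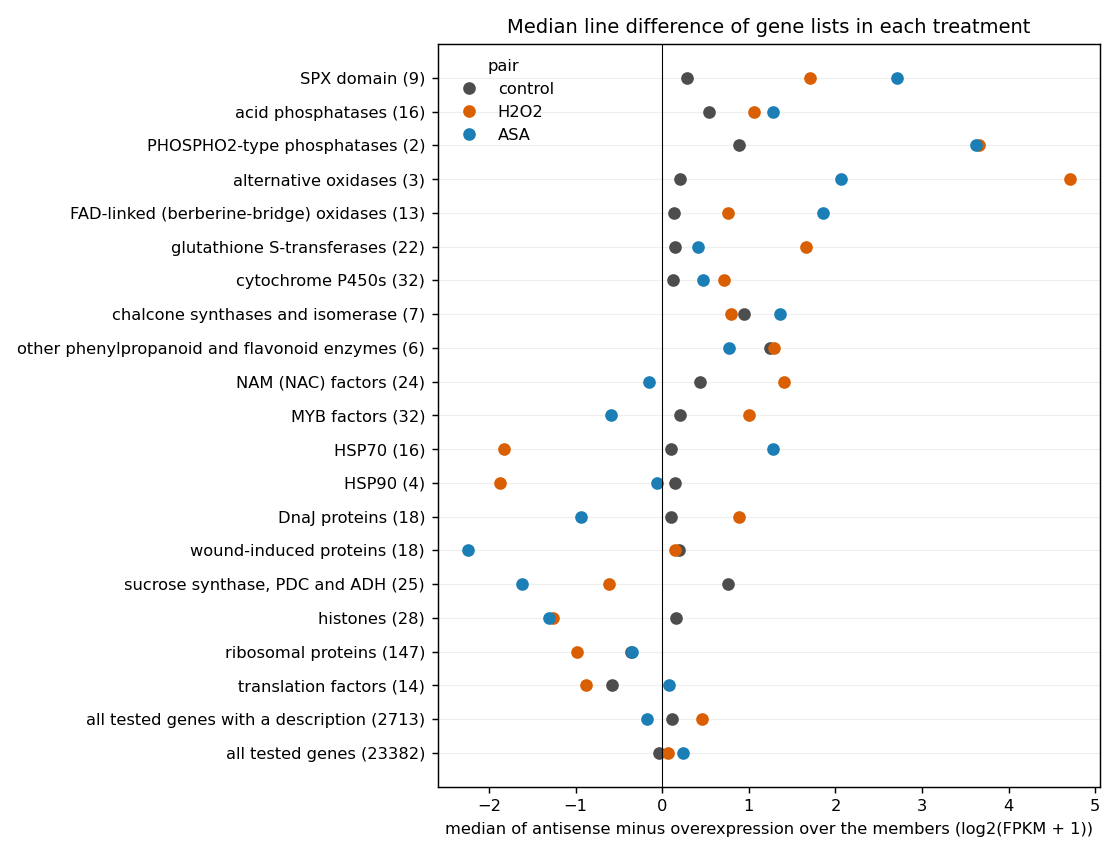
Median of antisense minus overexpression on log2(FPKM + 1) over the tested members of each list, with 1 point per treatment pair and the number of members in brackets. Points of the SPX, alternative oxidase and chalcone synthase lists lie to the right of 0, histones lie at 0.16 in the control pair and at -1.26 and -1.30 in the treated pairs, and HSP70 points lie on both sides.

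The line difference was also ordered along the gene identifiers. In the naming of the poplar genome the digits before the s of a POPTR identifier give the linkage group or scaffold, and the number after it counts genes along it. The 19 linkage groups were cut into 208 windows of 2000 identifier numbers with at least 20 tested genes, a choice made after the values had been seen. In 9 windows the window median lay below the median of all genes by at least 0.25 in every treatment pair, in 15 it lay above by as much in every pair, and in 184 neither held. The lower windows hold 1103 tested genes and the higher windows 1645.

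The clearest run was on linkage group 0008, where 7 windows in a row, from number 0 to 13999, held 866 tested genes. Their medians relative to all genes were -0.52, -0.52 and -0.55 in the control, H2O2 and ASA pairs. Of these genes 83.1% were below 0, which follows in part from choosing windows by their medians in the same libraries. In the next window, from 14000 to 15999, they were -0.04, -0.03 and -0.08. Among the genes named above, the H2B gene POPTR_0008s03060, the ribosomal genes POPTR_0008s04870 and POPTR_0008s06620, the expansin POPTR_0008s08790 and the desaturase POPTR_0008s07750 lie in this run. So does the acyltransferase-like POPTR_0008s06520.

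Linkage group 0003 stood the other way over most of its length. Its 998 tested genes from number 6000 to 21999 had relative medians of 0.32, 0.37 and 0.38 in the 3 pairs, and 63 genes from 0 to 1999 had 0.32, 0.30 and 0.42. Shorter runs in the same direction lay on group 0011 from 12000 to 17999 (285 genes, 0.36, 0.30 and 0.42), group 0014 from 0 to 3999 (201 genes, 0.48, 0.60 and 0.49) and group 0017 from 4000 to 5999 (98 genes, 0.35, 0.31 and 0.38). Lower windows lay on group 0016 from 6000 to 7999 (117 genes, -0.26, -0.32 and -0.33) and group 0018 from 10000 to 11999 (120 genes, -0.27, -0.30 and -0.44). The FAD-linked oxidases POPTR_0011s16560 and POPTR_0011s16580 and the cytochrome b5 gene POPTR_0014s01940 lie in higher runs. So do the P450 gene POPTR_0014s03740, the aminotransferase POPTR_0017s04600 and, on group 0003, POPTR_0003s16850, POPTR_0003s11960, POPTR_0003s17530, the kinase POPTR_0003s20480 and the peroxidase POPTR_0003s21610.

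Since windows were taken only where all 3 pairs were shifted to the same side, the agreement of the pairs within a run follows from the rule. Of the 16 genes that passed, 3 lie in a higher window, none (0) in a lower window and 11 in a window with no shift, and the other 2 are genes outside the numbering. The higher windows hold 1645 of the 23382 tested genes. Among the 11 are POPTR_0014s04760 and POPTR_0014s04770, in the window from 4000 to 5999 on group 0014, next to a higher run. Its relative medians were 0.26, 0.20 and 0.38 in control, H2O2 and ASA, so it missed the rule in the H2O2 pair only. The part that these runs play in any single gene's difference was not tested, and DNA copy number was not measured here.

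**Figure D5:**
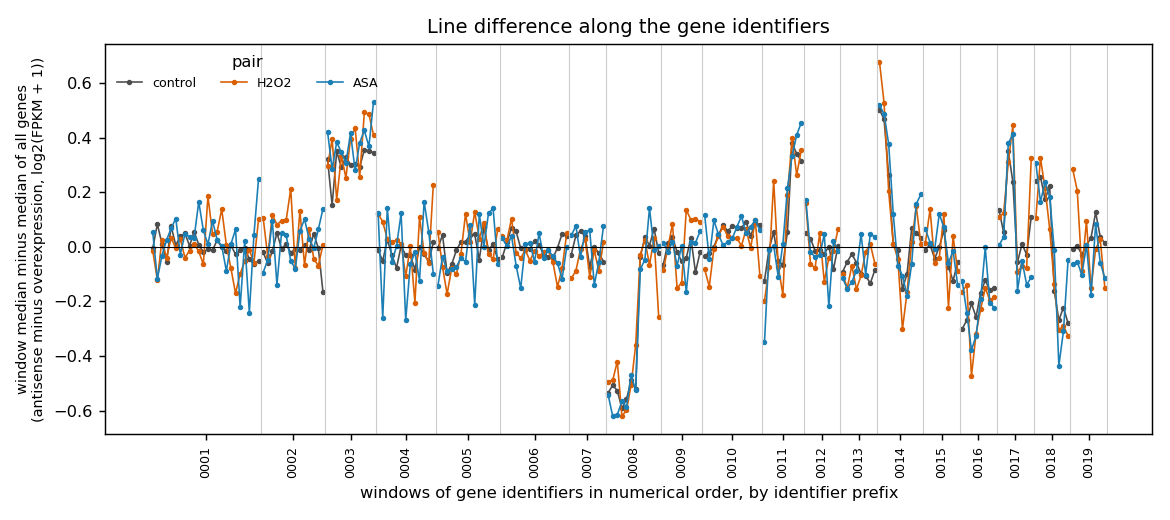
Median line difference of each window of 2000 identifier numbers minus the median of all tested genes, on log2(FPKM + 1), in numerical order along linkage groups 0001 to 0019, with 1 line per treatment pair. The 3 lines run together below 0 over the first 7 windows of group 0008, above 0 over group 0003 and at the start of group 0014, and near 0 over most other groups.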

How the data were processed

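RNA sequencing libraries of the antisense and overexpression lines were compared from the deposited table of FPKM values, made by the authors, 1 column per library. The submitters' processing notes name HTSeq 0.6.1, TopHat, TopHat2 2.0.12 and Bowtie2 2.2.3; what each did, the build and the handling of strand are not stated there. FPKM steps gave whole reads within 0.001 reads for 33158 genes, 100% of those above 0, of which 1546 have reads in 1 library only and fix no ratio; these reads gave the depth. Gene descriptions (2719 genes) come from the authors' deposited comparison tables, whose numeric columns were not used. No value column outside the labelled samples was present (0).

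Log2(FPKM + 1) was fitted with limma 3.58.1 in R 4.3.3 on line and treatment (empirical Bayes with a trend, Benjamini-Hochberg adjustment over 23382 genes whose mean reached 1 FPKM, threshold 0.05). With no replicates the residual (2 degrees of freedom, plus 4.44 from moderation) is the scatter of the line difference over treatments, so p-values measure that scatter only. The scale understates changes of low genes. The script was checked on simulated data. Members and the 53 word-pattern lists were chosen with earlier results of these data known, and list patterns were edited after descriptions and values had been read. Named genes were those with a description that passed (up to 15 a direction, filled with non-overlapping genes of largest difference), up to 4 members a list by absolute difference, the 3 highest and 3 lowest per treatment pair with at least 5 FPKM, and 5 genes whose difference turns with treatment; of undescribed genes, 2 higher and 2 lower. Alternatives were the pseudocount (0.1), filters, scalings, treatment terms, voom on the recovered reads and leaving out each library; windows along identifiers were added after the data had been seen. Python 3.11.15, pandas 2.3.3 and matplotlib 3.10.9 made tables and figures. No sequence or coordinate is given, since the identifiers matched no entry of the reference table used (0 matched).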

Additional observations from a re-analysis of the deposited data

Results flagged for a closer look

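The pair medians of 30 of the 53 lists did not all have the same sign. Those of all tested genes (-0.04, 0.07 and 0.23) and of all described genes (0.11, 0.46 and -0.17) did not either. Of single tested genes, 35.3% had the same sign in all 3 pairs. With no minimum for the treated pairs, 205 of the 2713 described genes turned between the control pair and both treated pairs. Given here are the lists of at least 10 genes that turned most, namely those with a control median of at least 0.1 one way and both treated medians of at least 0.5 the other way, or with H2O2 and ASA medians of at least 1 in opposite directions, and 5 single genes. With 1 library per condition these differences were not tested. In control cells the histone list lay slightly above 0 and after both treatments below it, the mean of the treated pair medians minus the control pair median being -1.45. The list of sucrose synthase, pyruvate decarboxylase and alcohol dehydrogenase turned in the same way, by -1.88. HSP70 genes were lower in the antisense line after H2O2 and higher after ASA, the H2O2 pair median minus the ASA pair median being -3.10, and this rests on treated labels that did not match between the lines.

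The hypoxia-induced protein gene POPTR_0019s08380 and the early nodulin 93 gene POPTR_0004s19470 were higher in the antisense line in control cells and lower after both treatments, with the mean treated difference minus the control difference at -6.16 and -5.80. The opposite turn was seen for POPTR_0004s20500 (ubiquitin and L40, 4.56), POPTR_0028s00410 (NDHB1, 4.54) and POPTR_0001s18160 (unknown domain, 4.24).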

How the results depend on the processing

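The count of 16 genes (8 higher, 8 lower) was 9 (3 higher, 6 lower) with a pseudocount of 0.1 and 9 (3 and 6) with a mean of at least 5 FPKM. It was 7 (2 and 5) under median-ratio scaling, 10 (2 and 8) under quantile normalization and 21 (9 and 12) with no mean-variance trend. It was 47 (17 and 30) with no treatment term and 73 (28 and 45) with treatment as control against treated. Without a filter on low values limma passed 0 genes (0 higher, 0 lower) of 32628, with 3572 at an unadjusted p below 0.05, and voom on the recovered reads passed 0 (0 and 0), with 2767 at that p. Leaving out 1 library gave 0 to 381 genes, 0 to 257 higher and 0 to 124 lower. All 16 genes kept their sign in every setting in which they were tested, 2 of them falling under the 5 FPKM filter. Genes at least 2-fold apart in the control pair numbered 1932 (926 higher, 1006 lower) with a pseudocount of 0.1, and in the ASA pair the 2842 higher genes became 1787 under median-ratio scaling; the other within-treatment counts, in total and by direction, moved by less than 1.5 times. The genes that passed and the non-overlapping genes named after them never reversed. Leaving out a library could not reverse them, since their sign was the same in all 3 pairs. Of their values 382 kept their status, 102 lost and 52 gained a call. Genes named only as list members were not followed singly. Of list medians 833 values stayed and 15 moved, by at least the standard deviation of the 3 pair medians. For the runs of identifiers 99 stayed and 21 moved. Some of these could not move. The fits with no treatment term, with treatment as control against treated and with no mean-variance trend give the main fit's line difference for every gene. Each of those fits adds 53 list values and 8 run values to the ones that stayed, and no sign could reverse there. Removing both treated libraries of a line leaves no residual degrees of freedom and the control pair alone, so that fit was not run. The comparison itself pairs the lines by treatment, and the fit with no treatment term is its unpaired form; the labels give no replicate numbers that could pair libraries otherwise. Depth limits genes of few reads: 3 reads in a gene of 1 kb are 0.153 to 0.175 FPKM, which covers counting error only.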

Other observations

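Set against the wild type libraries, which the comparison above leaves out, the runs of shifted identifiers fell to the lines unequally. In the run on linkage group 0008 the overexpression line minus wild type had medians relative to all genes of 0.51, 0.52 and 0.46 in control, H2O2 and ASA, and the antisense line minus wild type -0.01, 0.00 and -0.04. On group 0003 from 6000 to 21999 the overexpression line had -0.41, -0.39 and -0.41 and the antisense line -0.07, -0.05 and -0.08. On group 0016 from 6000 to 7999 the antisense line had -0.15, -0.25 and -0.19 and the overexpression line 0.05, 0.09 and 0.06. Over group 0016 as a whole the antisense line had -0.17, -0.22 and -0.15 and the overexpression line 0.01, 0.01 and 0.04. Group 0013 as a whole was above wild type in both lines, by 0.29, 0.19 and 0.26 in the antisense line and 0.34, 0.27 and 0.33 in the overexpression line, and so stood out little between them. Both sets of values share the wild type libraries, 1 per treatment, and the windows were chosen on the antisense and overexpression values.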
